A study of Arabidopsis thaliana with 12 samples.

Results

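Transcript levels in Arabidopsis thaliana leaves were compared between arrays titled dark 20 h and arrays titled light 8 h, 12 h apart in the series. The differences rest on 4 of the 12 one-colour arrays, 2 per time point, while the spread used in the tests comes from all 12. Every transcript on the array is taken in through its brightest probe. Of 5154 transcript names, 2250 were tested, namely those whose probe was well above background in both replicates of 20 h or of 8 h. All plants were Col-0, the reference accession, harvested as leaves at 30 days. They were grown at 22 °C, 65% humidity and 145 µmol per m2 per s of light, with 8 h of light and 16 h of dark per day. Both time points share all of these conditions. Continuous light is named in the series title, but light and dark in the sample titles and in the growth protocol. The words light and dark are therefore only names here, and the state of the lamps at 20 h is not given. Whether the 2 replicates of a time point were different plants is not stated, and all p-values therefore measure the spread between arrays, which may be technical.

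The plant circadian clock is a loop of repressors that act in turn over the day. The MYB factors CCA1 and LHY act in the morning, the pseudo-response regulators PRR9, PRR7 and PRR5 follow one another, and TOC1 closes the loop in the evening. Clock outputs include light signalling, cold tolerance genes and non-coding transcripts. MicroRNA precursors are the hairpin-bearing transcripts from which mature microRNAs are cut, and their level need not follow that of the mature microRNA, which the array does not measure.

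Levels are log2 of the background-corrected spot signal minus the 75th percentile of that array, so 0 is a bright probe and negative values are dimmer ones. Probes well above background numbered 3997 and 4045 on the 20 h arrays, against 3983 and 6186 on the 8 h arrays, out of 15013. Replicates correlated with r = 0.974 at 20 h and 0.978 at 8 h across transcripts, while arrays of 20 h and 8 h correlated with r from 0.931 to 0.943. All 4 arrays lay on the same slide, with the 20 h arrays in its second row and the 8 h arrays in its first, so row and time point cannot be told apart. The array carries none of the 5 leaf markers and none of the 4 markers of other organs that were looked for, and the tissue label was not checked for that reason. In these bulk samples a change in the number of cells of a type and a change in RNA per cell cannot be told apart.

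At 20 h, 101 of the 2250 transcripts were higher than at 8 h and 147 were lower. In limma's moderated test with Benjamini-Hochberg adjustment at 0.05, these are 4.49% and 6.53% of the transcripts tested, or 11% together. The median difference over all 2250 was -0.04 on the log2 scale. The 20 h and 8 h arrays did not overlap for 1311 transcripts (58.3%), far more than passed the test. With 2 arrays against 2, such a gap also arises often where levels do not differ. Among protein-coding loci 28 of 88 passed, 13 higher and 15 lower. Annotated non-coding loci gave 40 higher and 30 lower of 360, and transcripts known only by a TU code gave 44 higher and 74 lower of 1702. MicroRNA precursors gave 4 higher and 28 lower of 100. Of the 147 lower transcripts 30 were below background at 20 h, against 3 of the 101 higher ones at 8 h. Well above background on all 4 arrays were 94 of the higher and 110 of the lower ones. A separate fit of only the transcripts with such probes called 120 higher and 124 lower, and shared 204 calls with the main fit. With normexp background correction and quantile normalization 52.0% of the calls were higher at 20 h, against 40.7% in the main fit.

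**Figure D1:**
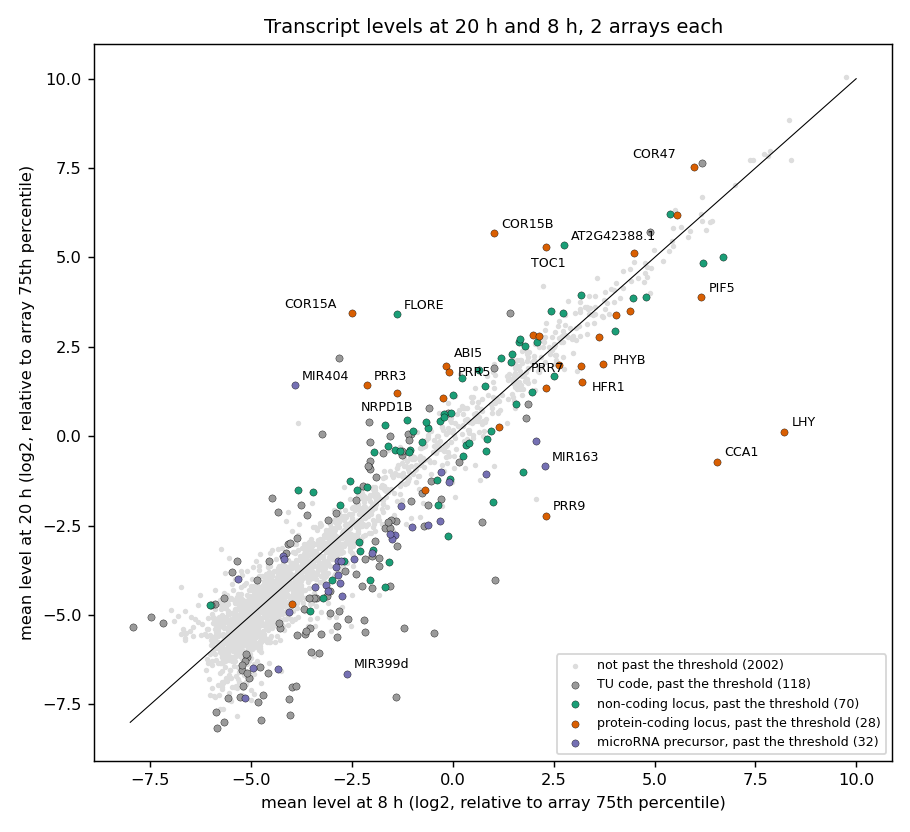
Mean level at 20 h (vertical axis) against mean level at 8 h (horizontal axis) for the 2250 transcripts tested, on the log2 scale relative to each array's 75th percentile, each mean over 2 arrays. Coloured points are the 248 transcripts past the threshold, and the line marks equal levels; LHY, CCA1 and PRR9 lie far below it and COR15A, COR15B and FLORE far above it.

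Clock genes held the 2 largest falls of all transcripts tested, those of LHY and CCA1. LHY had levels of 0.22 and 0.02 on the 20 h arrays, against 8.29 and 8.13 on the 8 h arrays. The groups lay far apart, and LHY was 273-fold lower at 20 h (log2 -8.09 ± 0.17 SE, adjusted p = 1.1e-07). Its partner CCA1 had -0.75 and -0.68 at 20 h, against 6.55 and 6.54 at 8 h, a fall of 154-fold (-7.26 ± 0.19, adjusted p = 3e-07). PRR9, the earliest acting of the pseudo-response regulators, had -2.31 and -2.14 at 20 h, against 2.37 and 2.24 at 8 h. That is a 23-fold fall (-4.53 ± 0.15), with no overlap between the groups. PRR7, which acts after PRR9, had 1.75 and 2.17 at 20 h, against 3.25 and 3.13 at 8 h. Its difference of -1.23 ± 0.27 (adjusted p = 0.022) was the smallest of the clock falls.

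Evening genes of the clock moved the other way. TOC1, which represses CCA1 and LHY, had 5.28 and 5.32 at 20 h, against 2.36 and 2.25 at 8 h. All TOC1 values at 20 h were above those at 8 h, and the gene was 7.97-fold higher (adjusted p = 1.2e-05). PRR3, which binds TOC1 protein and protects it from breakdown, had 1.29 and 1.57 at 20 h, against -2.0 and -2.27 at 8 h, an 11.9-fold rise (3.57 ± 0.23). PRR5 had 1.93 and 1.67 at 20 h, against -0.14 and -0.04 at 8 h, a 3.7-fold rise (1.89 ± 0.17). CHE, a repressor of CCA1 from the TCP family, had 4.29 and 4.31 at 20 h, against 4.01 and 4.08 at 8 h. The difference of 0.25 ± 0.18 did not pass (adjusted p = 0.47). Of the 8 clock genes on the array 3 were higher at 20 h and 4 lower, with a median of -0.49, against -0.04 over all transcripts. Over all transcripts 4.49% were higher and 6.53% lower, and 31.8% of protein-coding loci passed. The protein-coding loci include the members of the gene lists named here, so their share is not independent of the lists. The calls for LHY, CCA1, PRR9, PRR5, PRR3 and TOC1 held under each of the 14 alternatives and with each of the 12 arrays left out. Only leaving out a 20 h or 8 h array changes the difference itself. Leaving out an array of another time point changes only the spread, and does so alike for both replicates of that time point. That for PRR7 was lost under 4 alternatives and without either 8 h array or the first 20 h array, with adjusted p up to 0.48.

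**Figure D2:**
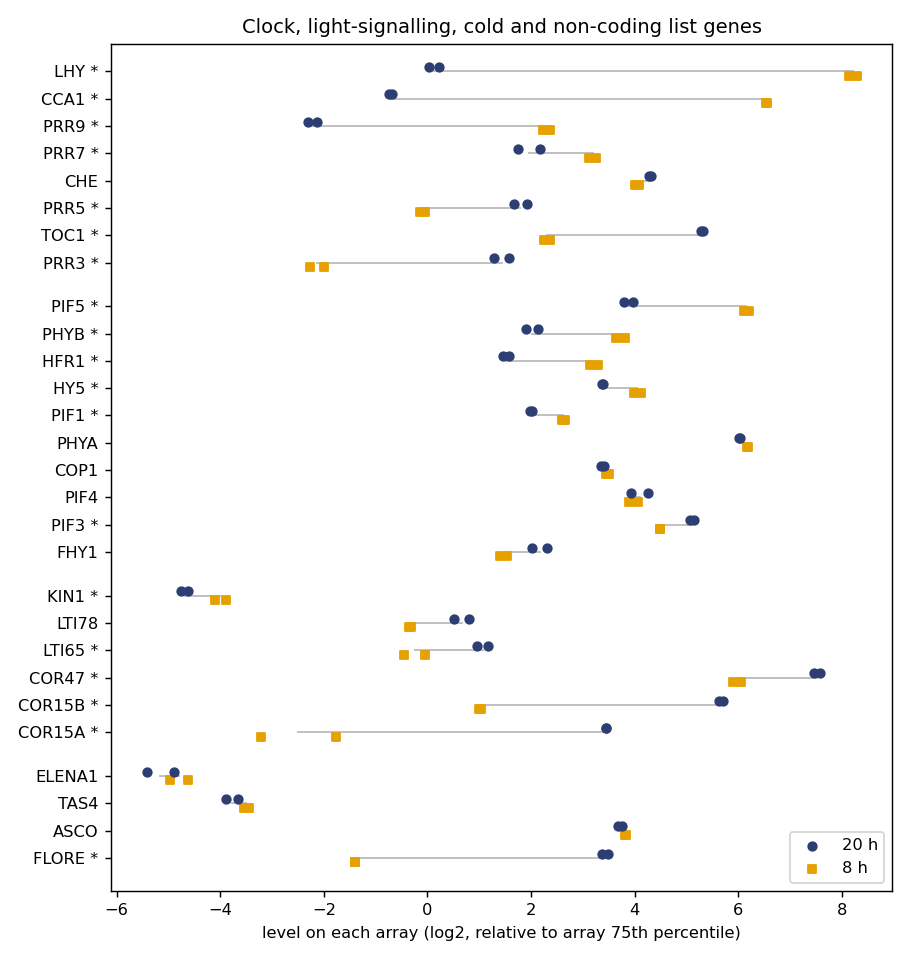
Level on each array of the clock, light-signalling, cold and known non-coding genes (rows), on the log2 scale relative to the array's 75th percentile, with 2 circles for 20 h and 2 squares for 8 h and a grey line between the group means. An asterisk marks adjusted p at or under 0.05 in limma; the circles of LHY lie at 0.22 and 0.02, left of its squares at 8.29 and 8.13, and those of TOC1 lie right of its squares.

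Light-signalling genes that passed were lower at 20 h but for PIF3, and PIF5, PHYB and HFR1 fell most. PIF5, a bHLH factor that promotes growth and is removed by active phytochrome, had 3.79 and 3.97 at 20 h, against 6.21 and 6.11 at 8 h. It fell 4.85-fold (log2 -2.28 ± 0.18, adjusted p = 0.00012 in limma). PHYB, the main red-light photoreceptor of grown plants, had 1.91 and 2.13 at 20 h, against 3.81 and 3.65 at 8 h, a fall of 3.27-fold. HFR1, a bHLH factor that restrains PIF proteins, had 1.47 and 1.57 at 20 h, against 3.29 and 3.13 at 8 h, a fall of 3.22-fold. For all 3 genes the lowest 8 h value was above the highest 20 h value. The groups also did not overlap in 9 of the 10 listed genes and in 58.3% of all transcripts. HY5, which activates genes of light-driven development, was lower by 0.67 ± 0.15 and PIF1, a repressor of germination, was lower by 0.62 ± 0.15. PIF3 went the other way, with 5.07 and 5.15 at 20 h, against 4.49 and 4.49 at 8 h (0.62 ± 0.15, adjusted p = 0.035).

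The remaining light-signalling genes did not pass the test. FHY1, needed for nuclear import of phytochrome A, differed by 0.69 ± 0.19 (adjusted p = 0.055). PIF4, PHYA and the ubiquitin ligase gene COP1 differed by 0.12, -0.15 and -0.09, with standard errors from 0.14 to 0.19. In all, 1 of the 10 listed genes was higher (4.49% of all transcripts were) and 5 were lower (6.53%), with a median of -0.39. Together 60% of the list passed, against 31.8% of protein-coding loci. FHL, a relative of FHY1 named here after its values were seen, was lower by 0.91 ± 0.15 (adjusted p = 0.0075). The calls for PHYB and HFR1 were lost only with scaling on all probes (adjusted p = 0.14 and 0.10). Those for HY5, PIF1 and PIF3 were lost under 5, 5 and 7 of the 14 alternatives and on leaving out 4, 8 and 8 of the 12 arrays, and 1 of the 3 HY5 probes gave 2.97.

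Most cold-regulated genes were higher at 20 h, COR15A and COR15B most of all. COR15A, which encodes a chloroplast protein that protects membranes in freezing, had 3.45 on both 20 h arrays, against -1.77 and -3.21 at 8 h. Its 8 h values differed from each other by more than those of the other cold genes did, and the rise was 61.2-fold (log2 5.94 ± 0.42, adjusted p = 7.5e-05). Its neighbour and close copy COR15B had 5.63 and 5.71 at 20 h, against 1.00 and 1.03 at 8 h, a 25.2-fold rise (4.66 ± 0.15). The second probe gave 4.31 for COR15B and 5.73 for COR15A, and the third of each was not well above background on both 8 h arrays. COR47, a dehydrin gene, had 7.57 and 7.47 at 20 h, against 6.05 and 5.90 at 8 h, a 2.92-fold rise. LTI65, which responds to drought and abscisic acid, had 1.17 and 0.97 at 20 h, against -0.04 and -0.45 at 8 h (1.31 ± 0.33, adjusted p = 0.04).

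Not every cold gene followed. LTI78, the standard reporter of cold and drought treatment, had 0.52 and 0.81 at 20 h, against -0.36 and -0.32 at 8 h. Its difference of 1.00 ± 0.27 missed the threshold (adjusted p = 0.055). KIN1, a small cold-induced protein gene with the close copy KIN2, was dim and lower by 0.69 ± 0.17 (adjusted p = 0.036), and which copy its probe reads was not tested. Of the 6 listed genes on the array, 4 were higher and 1 lower, with a median of 1.43. Together 83.3% of the list passed, against 31.8% of protein-coding loci and 11% of all transcripts. The calls for COR15A and COR15B held under every alternative and with every array left out, and COR47 lost its call only with scaling on all probes (adjusted p = 0.16). LTI65 and KIN1 lost theirs under 9 and 10 of the 14 alternatives and on leaving out 10 and 6 of the 12 arrays, and the mean of its 3 probes put KIN1 at 0.18.

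Abscisic acid is the stress hormone upstream of several of these genes. ABI5, a bZIP factor of abscisic acid responses, had 2.07 and 1.84 at 20 h, against -0.21 and -0.12 at 8 h. The groups did not overlap, and ABI5 was 4.35-fold higher (log2 2.12 ± 0.15, adjusted p = 7.5e-05 in limma). The phosphatase genes ABI1 and ABI2, which hold the pathway off, differed by 0.22 ± 0.21 and -0.26 ± 0.21, and AFP1, which binds ABI5, by 0.12 ± 0.18. ABI5 was the only one of the 4 tested genes of this list to pass. That is 25% of the list, against 31.8% of protein-coding loci tested and 11% of all transcripts. ABI3 and ABI4, factors of seed development, were not tested, because their brightest probe was not well above background on both arrays of either time point.

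Of 10 genes of RNA silencing 2 were higher and 1 lower at 20 h, with a median of 0.27. That share of 30% stands beside 11% of all transcripts and 31.8% of protein-coding loci tested, a class that holds this list and the other gene lists. NRPD1B, which encodes the main subunit of polymerase V, had 1.37 and 1.07 at 20 h, against -1.78 and -0.98 at 8 h, a 6.07-fold rise by its brightest probe (adjusted p = 0.0015). Its other probes gave -0.24 and -2.28, against that rise, and with the mean of its probes the difference was 0.03. DCL4, the dicer of trans-acting small RNAs, was higher by 0.67 ± 0.14, and STRS2, a DEAD-box helicase gene, was lower by 0.84 ± 0.14. DCL1, which cuts microRNA precursors, differed by 0.05 ± 0.14, DCL2 by -0.28 ± 0.18, DCL3 by -0.02 ± 0.14 and AGO2 by -0.28 ± 0.25, and none of these passed. The helicase gene STRS1 differed by 1.97 ± 0.78, and its 3 probes ran from -4.00 to 1.97. The calls for DCL4 and STRS2 were lost under 8 and 3 of the 14 alternatives.

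In smaller hormone lists 28.6% of auxin-related and 25% of jasmonate genes tested passed, against 31.8% of protein-coding loci and 11% of all transcripts. PIN3, an auxin efflux carrier, was lower at 20 h by 0.87 ± 0.20, and TSB1, a tryptophan synthase subunit gene, was higher by 0.63 ± 0.14, while the other 5 of 7 auxin-related genes did not pass. Of 4 jasmonate repressor genes JAZ5 was lower by 0.81 ± 0.14, and JAZ6, JAZ9 and JAZ10 differed by 0.60, 0.22 and 0.18 without passing. JAZ6 had probes from -2.31 to 0.60. Of 4 seed maturation genes only FUS3 was tested. It was well above background on 1 of its 2 arrays at 8 h and did not pass (adjusted p = 0.24 in limma). PIN3, TSB1 and JAZ5 each lost their call under at least 6 of the 14 alternatives.

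Among the 4 characterised non-coding RNAs tested FLORE alone passed, or 25%, against 19.4% of annotated non-coding loci. FLORE, whose locus overlaps that of CDF5, a repressor of flowering, had 3.36 and 3.48 at 20 h, against -1.39 and -1.40 at 8 h. It was 28.1-fold higher (log2 4.81 ± 0.14, adjusted p = 5.2e-07), its 3 probes gave 4.81 to 4.97, and its call held under every alternative and with every array left out. CDF5 itself is not among the transcripts on the array. ASCO, which binds splicing regulators, differed by -0.11 ± 0.13. TAS4, a source of trans-acting small RNAs, differed by -0.27 ± 0.18, and neither passed. ELENA1, known from immune responses, was well above background on 1 of its 2 arrays at 20 h and did not pass either.

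Several annotated non-coding loci were clearly lower at 20 h. AT4G17098.1 had -1.67 and -1.99 at 20 h, against 0.98 and 1.02 at 8 h, a fall of 7.14-fold (log2 -2.84 ± 0.16, adjusted p = 2.5e-05). AT5G53048.1 had -2.60 and -2.96 at 20 h, against -0.05 and -0.17 at 8 h, a fall of 6.36-fold. AT4G03038.1, whose locus overlaps the MIR826a and MIR826b loci, had -4.16 and -4.25 at 20 h, against -1.70 and -1.67 at 8 h. Its fall of 5.75-fold rests on 1 measured probe, and the mean of its probes gave a difference of -1.0 that did not pass (adjusted p = 0.39). AT4G31398.1, which overlaps the cohesion gene CTF7, fell 3.91-fold. In none of these 4 did the groups overlap, as in 58.3% of all transcripts. No function is known here for the loci named only by a code, and the gene table gives overlaps without strand, so an antisense transcript cannot be told apart from its partner.

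Rises among non-coding loci were smaller than that of FLORE. AT2G42388.1 had 5.80 and 4.90 at 20 h, against 2.29 and 3.21 at 8 h, a 6.07-fold rise (adjusted p = 0.0065). The other 2 probes of AT2G42388.1 gave -0.18 and 0.52, and its call was lost with the mean of its probes and with the 4 arrays of 20 h and 8 h alone. Both forms of AT5G01215 rose, AT5G01215.1 by 1.98 ± 0.28 and AT5G01215.2 by 1.89 ± 0.19, with 6 probes all above 0. AT1G53233.1, whose locus overlaps TCP3, a growth regulator targeted by miR319, had -2.39 and -0.64 at 20 h, against -3.58 and -4.11 at 8 h. Its rise of 2.33 ± 0.50 carried the widest error of the named loci of this class, and the call was lost without either 8 h array.

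Further loci were named after their values were seen, for the genes that they overlap. AT2G33815.1, at the phase-change gene SPL3, was 2.3-fold lower at 20 h (adjusted p = 0.005), although 1 of its 3 probes went the other way. AT5G15845.1, which overlaps the photoperiod gene CO and its relative COL1, was higher by 0.76 ± 0.20 (adjusted p = 0.045). AT3G21755.2, at the glycosyltransferase genes UGT71B1 and HYR1, was higher by 1.59 ± 0.20, and AT4G13505.1, at the ammonium transporter gene AMT1;1, by 1.30 ± 0.17. The 70 called non-coding transcripts came from 62 loci, and 40 of them were higher. That count of 40 became 20 and 14 without the first and second 8 h array, 23 and 14 without the first and second 20 h array, and 5 with scaling on all probes.

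MicroRNA precursors were mostly lower at 20 h. Of 100 tested, 28 were lower (6.53% of all transcripts were) and 4 higher, 70 had a negative difference, and the median was -0.28. The dimmest transcripts also lay lower at 20 h whatever their kind, and the part of this in the precursor count was not tested. In 4 equal bins of mean level, from dim to bright, the median of the transcripts that are not precursors was -0.28, -0.03, 0.01 and 0.11, and that of the precursors was -0.32, -0.18, -0.36 and -0.23. Of the 28 lower precursors, 14 and 9 lay in the 2 brighter bins. Another 73 precursors on the array were too dim to be tested. Scaling on all probes left 6 precursors lower, quantile normalization 12, and leaving out the first or second 8 h array 16 and 17.

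**Figure D3:**
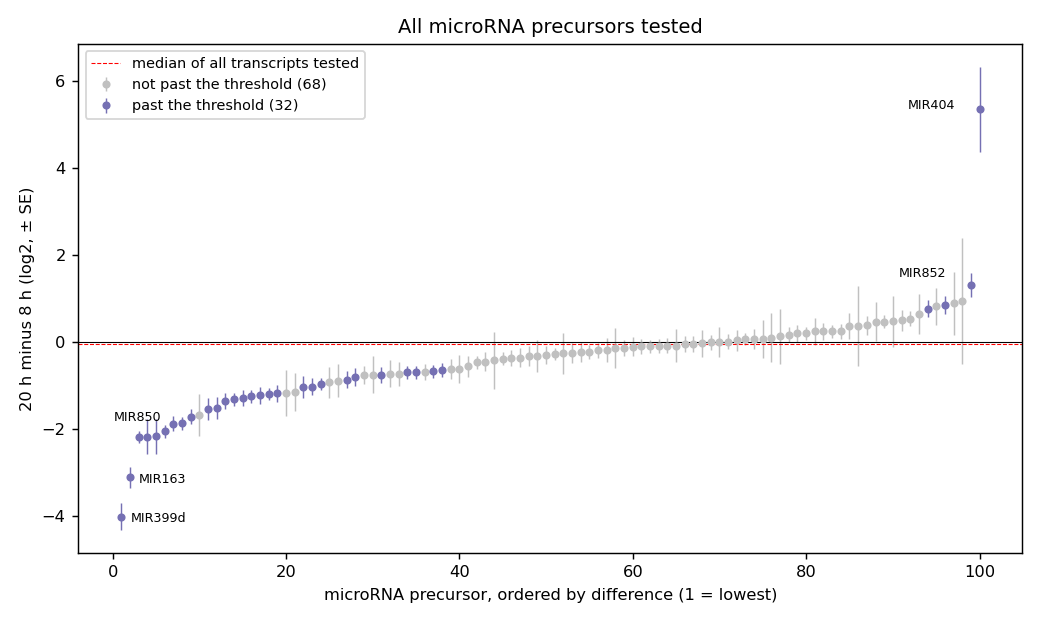
Difference between 20 h and 8 h (log2, with SE bars from limma) of the 100 microRNA precursors tested, ordered along the horizontal axis by difference. The 32 past the threshold are purple, 28 of them lie below 0, and the dashed line is the median of all transcripts, -0.04.

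MIR163, whose microRNA targets methyltransferase genes of secondary metabolism, had -0.66 and -1.02 at 20 h, against 2.38 and 2.16 at 8 h. It fell 8.64-fold (log2 -3.11 ± 0.24, adjusted p = 0.00011 in limma) by all 3 probes. MIR850 and MIR863 lie at the same non-coding locus, AT4G13495. MIR850 had -0.19 and -0.05 at 20 h, against 2.15 and 1.97 at 8 h, and MIR863 had -2.58 and -2.40 at 20 h, against -0.67 and -0.57 at 8 h. The differences were -2.18 ± 0.14 and -1.87 ± 0.14. AT4G13495.2, a transcript of that locus, had 4.93 and 5.08 at 20 h, against 6.73 and 6.69 at 8 h, and was lower by 1.70 ± 0.17. These 3 transcripts lie at 1 locus and are not taken as independent measurements, but whether their probes share sequence was not tested. AT4G13495.2 was named after its values were seen. MIR863 lost its call with scaling on all probes and with the mean of its probes (adjusted p up to 0.055).

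Of 3 phosphate-responsive precursors tested, 2 were lower at 20 h and not well above background there. MIR399d, whose microRNA restrains the phosphate regulator PHO2, was not well above background at 20 h (-7.03 and -6.25), against -2.73 and -2.54 at 8 h. It was at least 9.64-fold lower at 20 h (adjusted p = 0.00011), and this call held under the 13 alternatives that tested it and with every array left out. MIR399d and MIR399e entered the test through their 8 h arrays alone, and the alternative with the filter on both time points leaves them out. For MIR399e the same kind of bound was at least 1.68-fold lower at 20 h (adjusted p = 0.013). MIR399b, partly below background at 8 h, went the other way, higher at 20 h by 0.82, and did not pass. For such a bound each 20 h array is given its lowest signal well above background, or the signal of the probe if that is higher, and the 8 h mean is set against these. The bounds hold for the main processing only. Over the alternatives and arrays left out, the log2 differences of MIR399d and MIR399e were as small as -0.97 and -0.23. Those of MIR160a and MIR839, also given as bounds below, were as small as -0.35 and -0.13.

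Auxin-related precursors were divided. MIR167d, whose family targets the response factors ARF6 and ARF8, had -2.43 and -2.33 at 20 h, against -0.28 and -0.38 at 8 h, a fall of 4.16-fold (log2 -2.06 ± 0.16). The transcript AT1G31173.1, of the same locus, had -1.01 and -0.99 at 20 h, against 1.82 and 1.64 at 8 h, a fall of 6.63-fold. The relatives MIR167a and MIR167b differed by 0.47 and -0.05 and did not pass. MIR160a, whose microRNA targets other response factors of auxin, was at least 2.85-fold lower at 20 h, not being well above background there. MIR393b, whose microRNA targets the auxin receptors, was higher by 0.86 ± 0.21 (adjusted p = 0.036). Of 9 tested precursors of this list 1 was higher and 2 lower, with a median of -0.05. That share of 33.3% is near the 32% of all precursors tested.

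Members of the age pathway also differed among themselves. The microRNAs of MIR156 and MIR157 restrain SPL factors and the phase change to adult leaves, and that of MIR172 acts after them. MIR157c had -1.18 and -0.92 at 20 h, against 0.78 and 0.87 at 8 h, a fall of 3.66-fold (log2 -1.87 ± 0.18, adjusted p = 0.00043). MIR157d was lower by 1.51 ± 0.26. MIR157a and MIR157b differed by 0.20 and 0.25, and the MIR156 precursors tested ran from -0.73 to 0.39, none of them past the threshold. MIR172b, below background at 20 h, did not pass (adjusted p = 0.067). Of 12 tested in this list 2 were lower and none higher, a share of 16.7%, against 32% of all precursors tested and 11% of all transcripts.

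MIR159a and MIR159b, whose microRNA restrains GAMYB factors, fell together. MIR159a had -2.75 on both 20 h arrays, against -1.45 and -1.41 at 8 h, and MIR159b had -1.25 and -1.31 at 20 h, against -0.05 and -0.12 at 8 h. The differences were -1.32 ± 0.15 and -1.19 ± 0.14, and whether the similar hairpins share signal was not tested. MIR319c, whose microRNA targets TCP factors, was lower by 0.86 ± 0.20. Copper-related precursors fell too, MIR408 by 1.25 ± 0.15, MIR398a by 1.03 ± 0.20 and MIR398c by 0.67 ± 0.15; their microRNAs target copper proteins. The fourth, MIR398b, differed by -0.75 without passing. With 3 of 4 lower, 75% of the copper list passed, against 32% of all precursors tested.

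Of the MIR169 family, whose microRNAs target NF-YA factors, MIR169a, MIR169f, MIR169g and MIR169m fell by 0.96, 0.64, 0.70 and 0.75. Further falls were in MIR775 (-1.72), MIR824 (-1.35), MIR161 (-1.29), MIR779 (-1.23), MIR841 (-1.18), MIR833 (-1.03), MIR825 (-0.81) and MIR396a (-0.70), and MIR839 was at least 1.94-fold lower. MIR824 is the source of a microRNA against AGL16, and MIR396a of one against growth-regulating factors. The largest precursor rise was that of MIR404, with 1.76 and 1.09 at 20 h, against -2.35 and -5.50 at 8 h. No other named precursor differed as much between its 8 h arrays, and the other measured probe of MIR404 gave -0.61 against 5.35 ± 0.97 for the brightest. MIR447b was higher by 0.77 ± 0.20, and MIR852, well above background on 1 of its 2 arrays at 8 h, by 1.32 ± 0.28.

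No precursor passed in the leaf-polarity list (7 MIR165 and MIR166 members, median -0.10), against 32% of all precursors tested. Likewise none passed among 3 members of MIR171 or among 5 whose microRNAs target silencing genes, where MIR162a, MIR168a and MIR403 differed by 0.01, -0.04 and -0.23. Calls for MIR163, MIR850, MIR167d and MIR157c held under every alternative and with every array left out. MIR159a, MIR159b and MIR824 lost theirs only with scaling on all probes. MIR404 lost its call under 1 alternative and without the first 20 h array. MIR157d, MIR160a, MIR161, MIR399e, MIR408, MIR775, MIR779, MIR839, MIR841 and MIR852 lost theirs under 3 to 6 alternatives. Of these, MIR157d and MIR160a also lost theirs on leaving out, singly, 2 of the 12 arrays, and MIR399e and MIR852 4 of them. The 4 MIR169 members, MIR319c, MIR393b, MIR447b, MIR825, MIR833, MIR396a, MIR398a and MIR398c lost theirs under at least 7 of the 14 alternatives. All of this last group but MIR169a also lost theirs on leaving out, singly, at least 3 of the 12 arrays.

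A few microRNA targets are also on the array, and none of them passed. NF-YA5, a target of miR169, had 0.12 and 0.24 at 20 h, against -0.30 and -0.21 at 8 h, a difference of 0.43 ± 0.14 (adjusted p = 0.11). NAC1 and NAC080, targets of miR164, differed by -0.40 ± 0.24 and 0.10 ± 0.13, and IAR3, a target of miR167, by -0.10 ± 0.16. TIR1, a target of miR393, differed by 0.44 ± 0.48, and NLA, a target of miR827, by -0.18 ± 0.39. NF-YA5, NAC080 and NLA were named after their values were seen.

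Transcripts with only a TU code made up 1702 of those tested, and 6.93% of them passed. The largest measured rise was AT1TU058770, with 2.17 and 2.22 at 20 h, against -0.96 and -4.70 at 8 h (log2 5.03 ± 1.00, adjusted p = 0.016), on 1 measured probe. AT3TU007380 had -0.02 and 0.12 at 20 h, against -3.15 and -3.34 at 8 h, a 9.82-fold rise by all 3 probes. AT4TU026290 had -3.94 and -4.10 at 20 h, against 1.59 and 0.49 at 8 h, a fall of 33.3-fold. AT4TU026300 fell 17.8-fold, with -5.57 and -5.15 at 20 h, against -1.22 and -1.19 at 8 h. Both falls were shared by all 3 probes of each transcript, and AT1TU058770 was the only one of these 4 to lose its call under any alternative.

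The arrays of 12 h and 16 h lay on the same slide too. Because transcripts were picked by the 20 h and 8 h arrays, those lower at 20 h cannot be lowest at 8 h or highest at 20 h, and the counts here are only a description. Of the 147 transcripts lower at 20 h, 72 had their highest mean of these 4 time points at 8 h and 59 at 12 h, and 121 had their lowest at 20 h. Among the 2002 that did not pass, 366 had their highest mean at 8 h, and 522 had their lowest at 20 h. Of the 101 higher at 20 h, 59 had their highest mean at 20 h and 38 at 16 h, and 56 had their lowest at 8 h. Means moved one way at each step from 8 h to 20 h in 40 of the lower and 16 of the higher transcripts. LHY was one of these, with means of 8.21, 4.86, 0.71 and 0.12 in the order of time. The step from 16 h to 20 h was the largest of the 3 in 23 of the 28 lower precursors, in 75 of all 147 lower transcripts and in 802 of the 2002 that did not pass; the difference between these shares was not tested. MIR167d had means of -0.33, 0.74, 0.17 and -2.38 in the same order.

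**Figure D4:**
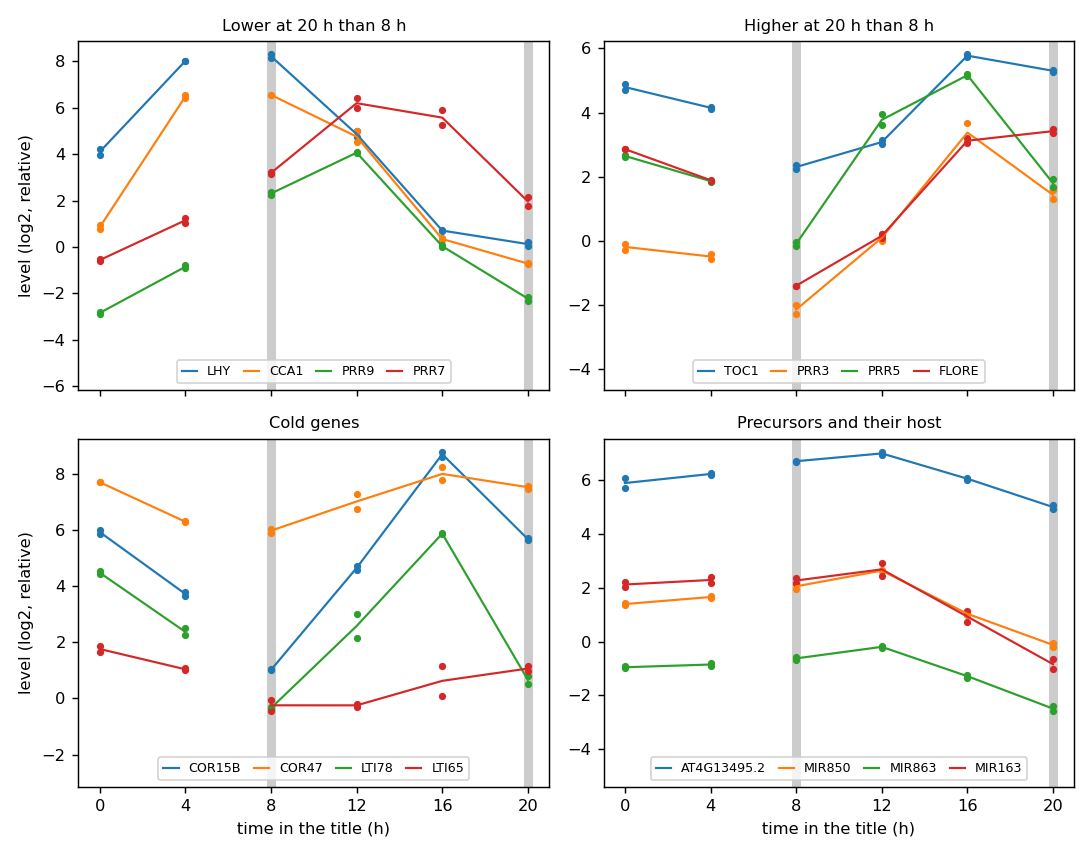
Level (log2, relative to the array's 75th percentile) by the time in the title, for 4 genes in each of 4 panels; points are single arrays and lines join the means. Grey bars mark 8 h and 20 h, and the lines are broken between 4 h and 8 h, where the slide changes. PRR5 and LTI78 are highest at 16 h, while LHY, CCA1 and MIR163 are lowest at 20 h.

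A 12 h contrast misses transcripts that peak or dip between its ends. The mean of 12 h and 16 h was therefore set against the mean of 20 h and 8 h in the same fit, and 399 of 2250 transcripts passed (17.7%), 205 higher and 194 lower at 12 h and 16 h. Of these, 119 also differed between 20 h and 8 h, which is 29.8% of the 399 and 48% of the 248, and 280 did not pass there. PIF4, level at the ends, was higher in between by 2.05 ± 0.13 (adjusted p = 6.6e-05 in limma), with means of 3.98, 6.08, 6.11 and 4.10 in the order of time. LTI78 was higher in between by 4.07 ± 0.19, PRR5 by 3.62 ± 0.12 and PRR7 by 3.31 ± 0.19. COR15A and COR15B, higher at 20 h than at 8 h, were higher still in between, by 3.86 ± 0.30 and 3.33 ± 0.11 over the mean of the ends. AT5G53048.1, lower at 20 h than at 8 h, was higher in between by 3.48 ± 0.12. CCA1 and CHE did not depart from the mean of the ends by this test (-0.37 ± 0.13, adjusted p = 0.098, and 0.06 ± 0.13, adjusted p = 0.79).

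The split of that contrast between higher and lower depends on scaling. Higher transcripts were 51.4% of the calls here, 25% with scaling on all probes, 37% with quantile normalization, 36.9% in the deposited series table and 39.1% with normexp. Scaling on all probes moved the median of all transcripts in it to -0.33, against 0.06 here. Without the first 16 h array 629 transcripts passed, and without the second 8 h array 260 did.

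Most transcripts are covered by several probes, which read the same RNA and are not replicates. Of the 248 that differed between 20 h and 8 h, 186 had at least 2 probes well above background on both arrays of 20 h or of 8 h, and in 172 of them (92.5%) all such probes had the same sign. Among transcripts that did not pass, that share was 60.3% (595 of 987). Transcripts passed by the difference at their brightest probe, so a higher share among them follows in part from that choice. The shares are only a description. The 14 with a probe of opposite sign include HY5, NRPD1B, AT2G42388.1, AT2G33815.1 and MIR404.

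**Figure D5:**
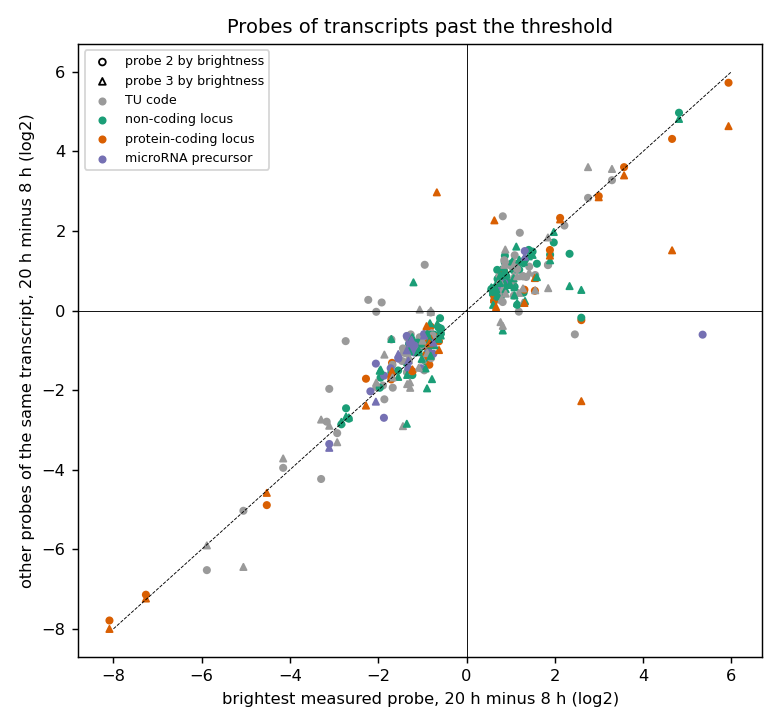
Difference between 20 h and 8 h (log2) of the other measured probes of a transcript (vertical axis) against that of its brightest probe (horizontal axis), for the 186 transcripts past the threshold with at least 2 measured probes. Colours are transcript classes and shapes the rank of the probe; points in the upper left and lower right belong to the 14 transcripts whose probes disagree in sign, with a HY5 probe at 2.97 and a MIR404 probe at -0.61.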

How the data were processed

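Leaf RNA (0.5 µg per sample, per the labels) was labelled with 1 dye and hybridised to 12 arrays. Per the file headers, the authors quantified the arrays with Agilent Feature Extraction 10.5.1.1. The deposited files hold spot intensity, not log-transformed, and the processed signal used here has the background removed. The deposited series table holds log2 values. Each of its columns has a median of 1.37 and follows the scanner values with a slope of 0.956 to 1.28, and the method behind it is not stated in the labels.

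Levels are log2 of the processed signal minus the array's 75th percentile, taken over the 2876 probes that passed the scanner's background test on every array. Control spots (536) and spots marked as outliers were left out; 4 tested transcripts had such a spot among the 20 h and 8 h arrays, and none of them was called. No probe was saturated. Each transcript name (5154, of which 4785 have 3 probes) was represented by its probe of highest mean signal. Files hold no reads, so the number of arrays and, for dim probes, signal over background limit the precision. Models had 1 mean per time point over all 12 arrays (limma 3.58.1, R 4.3.3, lmFit and eBayes, 6 residual degrees of freedom), with Benjamini-Hochberg adjustment over the 2250 transcripts. Values after ± are standard errors from that model. The code was tested on simulated data.

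Locus codes were matched to the gene table (TAIR10.1) for 400 of 405 loci and for 164 of 173 precursor names. The array headers name another build, so no coordinates are given, and planned promoter motif searches were not run because no promoter sequences were used. Alternatives changed scaling, background correction, filter, probe choice, arrays used, weights, variance trend and replicate block. The members, lists and tests were chosen with earlier results of these data known, and the jasmonate, auxin and seed maturation lists after the array's content was seen. Named were all list members on the array, all called precursors, the 12 largest measured rises and falls among annotated transcripts, up to 3 bounds in each direction, and 2 rises and 2 falls with TU codes; others are marked in the text.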

Additional observations from a re-analysis of the deposited data

How the results depend on the processing

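Of the 71 named transcripts that passed, 25 kept their call under every alternative that tested them (14, or 13 for MIR399d) and with every array left out, and 43 with each of the 12 arrays left out. The count of transcripts that differed between 20 h and 8 h was 248. It was 75 with scaling on all probes, 153 with quantile normalization, 147 in the deposited series table, 77 with no filter on signal, 123 within slide 2 and 116 with the 4 arrays of 20 h and 8 h alone. In those last 2 settings the differences are the same and only the spread changes. Leaving out single arrays gave 125 (without the first 8 h array) to 295 (without either 16 h array), with 132 without the second 8 h array and 152 without the second 20 h array. The contrast of 12 h and 16 h against the ends passed 399 transcripts, and 64 with scaling on all probes, 115 with no filter, 204 within slide 2, 257 with array weights, and 260 (without the second 8 h array) to 629 (without the first 16 h array).

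Precursors lower at 20 h numbered 28, and 6 with scaling on all probes, 12 with quantile normalization, 12 in the series table, 11 with no filter, 18 within slide 2, 16 with 4 arrays, and 16 (without the first 8 h array, 17 without the second) to 31. Non-coding loci higher at 20 h numbered 40, and 5 with scaling on all probes, 73 with normexp and quantile normalization, 25 in the series table, 6 with no filter, 26 with the filter over all 6 time points, 13 within slide 2, 11 with 4 arrays and 14 to 45 with single arrays left out. The counts of precursors and of non-coding loci were added after seeing the data.

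Among named transcripts that passed in the main fit or the alternative, signs turned for MIR852 with normexp and quantile normalization (-0.041). With the mean of all probes they turned for HY5 (0.54), KIN1 (0.18) and JAZ6 (-0.69, adjusted p = 0.044 in limma). Signs also turned for some that passed in neither, such as STRS1 with the mean of all probes (-1.03). The cause was not tested. With the replicate number as a block 228 transcripts passed. Same-numbered 20 h and 8 h arrays deviated together with r = 0.146 and other pairs of time points with -0.0621 to 0.237. Whether the numbers mark a shared plant or day is not stated, and with 2 replicates per time point these values cannot decide it. Slide as a random block was not run, since the time points already carry it. Normexp used the median spot signal, the files holding no mean signal. At an unadjusted p of 0.05, 540 transcripts passed.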

Other observations

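Some annotated transcripts did not pass between 20 h and 8 h but stood apart in between. They are given here as values, chosen after they were seen. The non-coding locus AT3G61198.1 had means of 3.73, 2.25, 0.46 and 3.32 from 8 h to 20 h, and was lower in between by 2.17 ± 0.14 (adjusted p = 6.6e-05 in limma). AT2G35637.1 was lower in between by 1.57 ± 0.11, with a difference of 0.06 ± 0.15 between 20 h and 8 h. MIR846 and MIR822 were lower in between by 1.07 ± 0.22 and 1.01 ± 0.12, and MIR171b by 0.97 ± 0.11. Between 20 h and 8 h MIR846, MIR822 and MIR171b differed by 0.37, 0.17 and -0.38, and AT3G61198.1 by -0.40. The phosphatase gene ABI2 was higher in between by 1.09 ± 0.15, with a difference of -0.26 ± 0.21 between the ends. The 16 h replicates were the least alike of the 4 time points, with r = 0.941 and a median SD of 0.292 on the log2 scale.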
